A study of Mus musculus with 20 samples.

Results

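The beginning of GATA6 induction was followed by ATAC-seq, which cuts open DNA with the transposase Tn5 and counts the resulting fragments, in mouse KH2 ES cells at d0 and after 8 h and 16 h, with 3 libraries per group. These 9 libraries are those of the 20 samples whose titles carry d0, d008 and d016, and they were compared over all 42403 regions listed as GATA6-bound. All cells were of C57BL/6 x 129/Sv background, carried a doxycycline-inducible gata6 cassette and were grown with LIF on MEF feeders, from which they were separated by adsorption before transposition. The d0 cells were untreated and the others received 1 ug/mL doxycycline. The titles give 8 h and 16 h of induction, whereas the treatment labels of the same samples give 16 h and 24 h, and the titles are used throughout. The cassette places GATA6 in ES cells that do not normally express it, and which of the study's induced clones gave these libraries is not stated in the sources used here.

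GATA6 is a zinc-finger transcription factor of the primitive endoderm (PrE), the early embryonic lineage that forms the yolk sac endoderm next to the pluripotent epiblast. It recognises GATA-containing DNA, can bind sequences wrapped in nucleosomes, and drives ES cells towards PrE when expressed in them. SOX17 is a PrE factor that is activated downstream of GATA6, while OCT4, SOX2 and ESRRB, collectively the pluripotency transcription factors (PTFs), maintain the ES cell state. The table groups regions by the kinetics of GATA6 binding as Early&Constant, Late or Transient, and these groups were made from GATA6 binding and not from ATAC signal.

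The level of a region is given as RPM, its reads scaled to the library size, averaged by the authors over the libraries of a group after adding 1 read to each. The deposited d0 column was not an average of d0 libraries alone. Subtracting the 8 h and 16 h columns from 3 times the d0 column gave values that were whole reads of 3 libraries in 24867 of 24867 regions listed with enough digits, whereas the d0 column itself and 4 other subtractions gave no solution, so that the column averages 9 libraries, those of d0, 8 h and 16 h together. A second property of the table does not depend on whole reads. The classes of accessibility at d0 (closed, moderate, accessible) were separated without overlap by the recovered d0 average per kb of region, at 0.144 and 0.574 RPM per kb, while 17932 of the 42403 regions (42.3%) lay where the classes overlapped when the deposited column was used. The recovered d0 average is therefore used below, and the deposited column is given beside it.

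Reads of single libraries could be recovered in 24841 regions, on chromosomes 1, 2 (71 regions), 4 to 13. The other regions, among them all those of chromosomes 3, 14 to 19, X and Y, are listed with too few digits and have averages only. Library sizes ranged from 191 M to 230 M reads, and 0.263% to 0.577% of a library fell in the recovered regions, with a median of 10 to 26 reads per region. This share varied widely within each group, from 0.263% to 0.384% at d0, from 0.265% to 0.498% at 8 h and from 0.283% to 0.577% at 16 h, so each comparison was made as scaled by the authors and again with every library centred on its median region. Library A of d0 stood apart. Its median was lower than that of the other d0 libraries in regions without PTF binding (-4.16 against -3.76 and -3.64, as log2 of RPM + 0.03) and higher in regions bound by PTFs at d0 (-1.51 against -2.31 and -1.95). Libraries carry arbitrary letters since the columns hold no replicate numbers.

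The sequences at the best GATA6 motif of 5 regions are shown to make the sites concrete. They are 3 regions with the lowest p-values at 16 h against d0, a region near Nectin1 already past the test at 8 h, and a region downstream of Sox17. Each is read 5′ to 3′ on the strand of the motif from the RefSeq GRCm38 genome, which is mm10, with the match in capitals between 8 flanking bases.
Ate1, +371.2 kb, chr7:130149288-130149316, minus strand: ggaaaataACCAGATAAGATGcaattgtg
Gm47985, -37.8 kb, chr1:151144693-151144721, minus strand: aaacagagTCAAGATAAGAGTctgaggtc
Atxn7l3b, -44.8 kb, chr10:112973883-112973911, minus strand: ttatcagcAAAAGATAAGAAGtcacagaa
Nectin1, +114.5 kb, chr9:43857977-43858005, plus strand: cctcggtgCTGAGATAAGAGActatcccc
Sox17, +22.7 kb, chr1:4474670-4474698, minus strand: acaggaccAGGAGATAAGCAGgctgggga
All 5 hold GATA. Over the table, 31409 of 38052 best motifs (82.5%) hold GATA on their strand, against 3.4% of windows of the same length starting 100 bases before them. The matches were picked by their score to the GATA6 motif, so this contrast was fixed in advance and only checks the coordinates.

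As scaled by the authors, many more GATA6 regions were higher than lower within 16 h. Against the recovered d0 average, 8388 regions (19.8%) were at least 1.5-fold higher and 1439 (3.39%) at least 1.5-fold lower at 8 h, and 11008 (26.0%) were higher and 1482 (3.5%) lower at 16 h. Here and below a fold is taken on RPM + 0.03, and these averages have no replicate spread. At 2-fold the counts were 1882 higher and 169 lower at 8 h, and 4173 and 292 at 16 h. The median difference over all regions was 0.23 at 8 h and 0.28 at 16 h on the log2 scale. Against the deposited d0 column only 57 regions (0.134%) were higher and 98 (0.231%) lower at 8 h, and 1107 (2.61%) and 165 (0.389%) at 16 h, since 6 of the 9 libraries in that column are the induced ones. The median region stood 0.34 (8 h) and 0.46 (16 h) above d0 between column medians, and once the columns were centred the split turned, with 2548 regions higher and 5289 lower at 8 h and 3727 higher and 6859 lower at 16 h. Median differences below are as scaled unless called centred.

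Single-region tests were made with limma on the recovered libraries, on log2(RPM + 0.03) and with Benjamini-Hochberg adjusted p below 0.05. At 8 h against d0, 313 of 24841 regions (1.26%) were called higher and 10 (0.0403%) lower as scaled, and 385 (1.55%) and 632 (2.54%) after centring. At 16 h, 2055 (8.27%) were higher and 59 (0.238%) lower as scaled, and 1171 (4.71%) and 1544 (6.22%) after centring. All 1171 regions called higher at 16 h after centring were also called as scaled, as were 295 of the 385 at 8 h, and the 10 and 59 regions called lower as scaled were all called lower after centring. Without library A of d0 the calls as scaled were 49 higher and 0 lower at 8 h and 815 higher and 2 lower at 16 h. Without library A of 16 h they were 613 higher and 89 lower at 16 h. The 59 calls of a decrease at 16 h also came to 7 without library B of 16 h, 24 without its library C and 21 without library C of d0, and the 10 at 8 h to 0 without library A of 8 h. In bulk cultures, a change in the number of cells in which a region is open and a change of accessibility per cell cannot be told apart.

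The rise was strongest in Early&Constant regions, which bind GATA6 soon after induction and keep it. Their median level was 0.0740 RPM at d0, then 0.119 RPM at 8 h and 0.159 RPM at 16 h, a median difference of 0.39 and then 0.61 on the log2 scale. Late regions, which gain GATA6 slowly, started lower and went from 0.0313 to 0.0454 and 0.0418 RPM, with median differences of 0.23 and 0.19. Transient regions, which lose GATA6 again, went from 0.0981 to 0.111 and 0.120 RPM, with 0.12 and 0.20. By 16 h, 51.7% of the Early&Constant group had gained at least 1.5-fold, beside 20.8% of the Transient and 10.4% of the Late group. After centring, only the Early&Constant group had a median above zero (0.15 at 16 h, against -0.27 for Late and -0.26 for Transient).

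**Figure D1:**
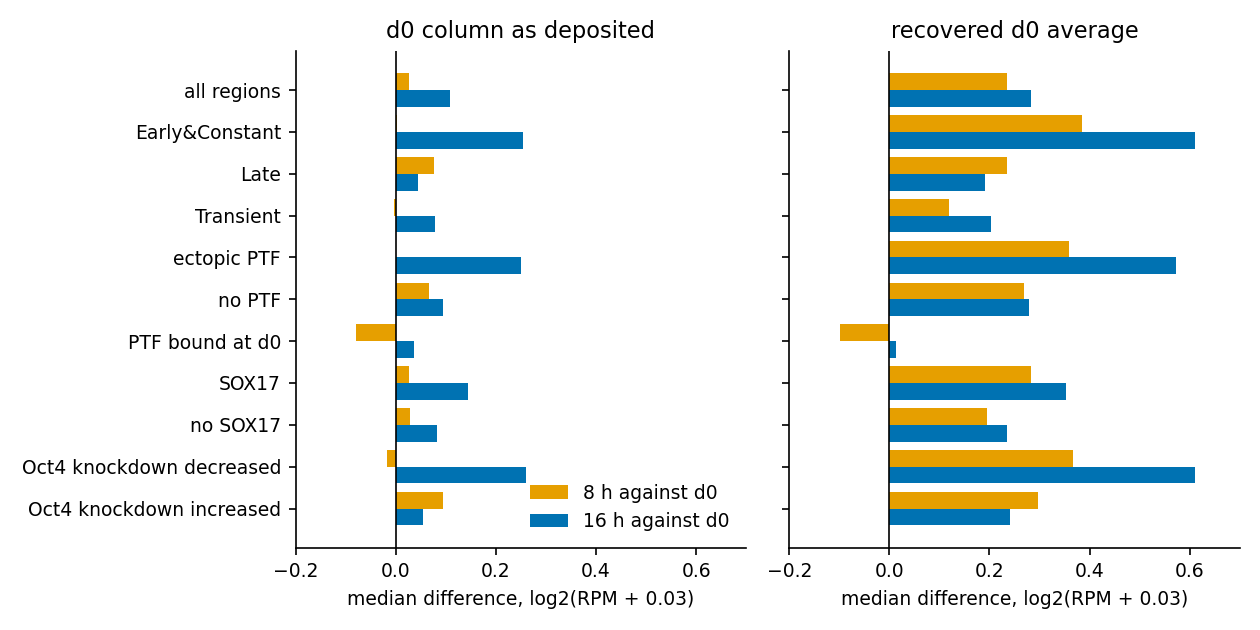
Median difference in log2(RPM + 0.03) at 8 h and 16 h against d0 over the regions of each set, with the d0 column as deposited (left) and with the recovered d0 average (right). Bars start at 0 and carry no error since they come from averaged columns. With the recovered average the Early&Constant set lies at 0.39 and 0.61 and the set bound by PTFs at d0 at -0.10 and 0.01.

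Differences between set medians were also taken inside each library, where a common factor on all regions weighs less but, through the pseudocount, is not removed. The Early&Constant median exceeded the Late median by 0.73 ± 0.04 (SD, n = 3) at d0, 1.00 ± 0.14 at 8 h and 1.32 ± 0.22 at 16 h. The 16 h value against d0, a difference of 0.59, became 0.37 with a pseudocount of 0.15 RPM and 0.51 after quantile normalisation. All 3 libraries of 8 h, from 0.87 to 1.14, and of 16 h, from 1.12 to 1.55, lay above those of d0, from 0.68 to 0.77. Relative to Transient regions, Early&Constant regions were lower at d0, by -0.68, -0.12 and -0.10, and higher in every induced library, by 0.04 to 0.17 at 8 h and by 0.29 to 0.36 at 16 h. An exact two-sided permutation test of 3 against 3 libraries cannot go below p = 0.1, which these comparisons reached, and over the 51 tests of 17 set pairs the adjusted p was 0.319, so none passes the 0.05 threshold. The groups did not overlap for 5 of 17 pairs at 8 h against d0, for 7 at 16 h against d0 and for 4 at 16 h against 8 h.

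**Figure D2:**
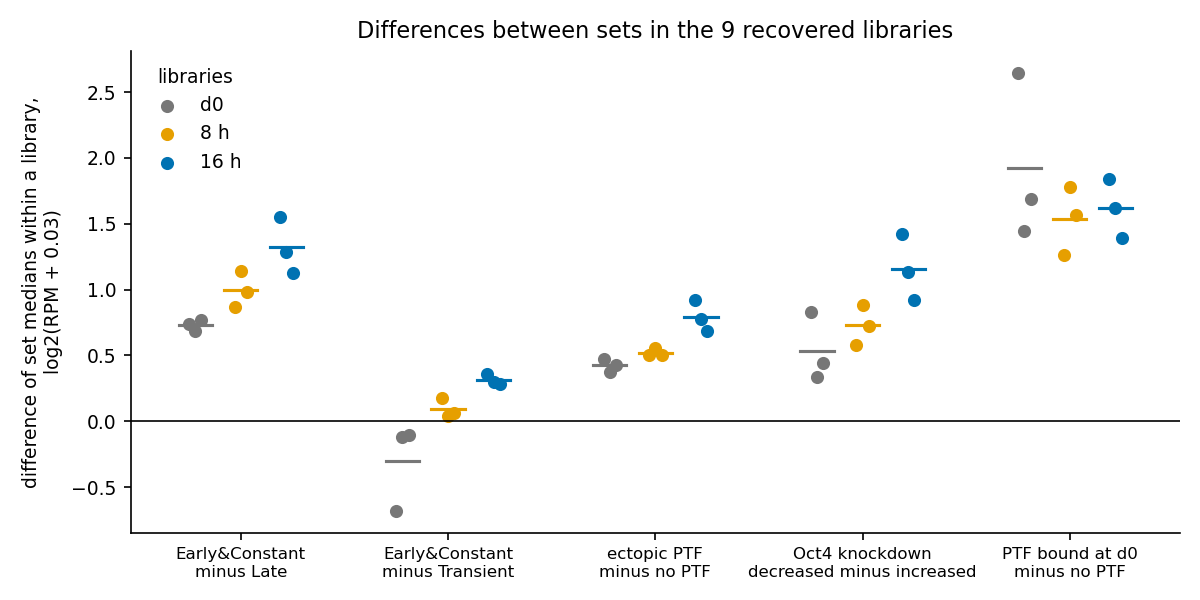
Difference between the medians of a pair of region sets within each of the 9 recovered libraries, on the log2(RPM + 0.03) scale; points are libraries and lines their means. The 3 leftmost pairs rise from d0 to 8 h to 16 h in their means, and the d0 library at 2.65 in the rightmost pair is library A.

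Early&Constant regions made up 938 of the 1171 regions called higher at 16 h on both scales (80.1%), against 27.6% of the regions tested. Late regions made up 20 of them (1.71%, against 32.9% of those tested) and Transient regions 213 (18.2%, against 39.5%). Of the 59 regions called lower at 16 h on both scales, all were Transient (39.5% of those tested) and 54 were bound by PTFs at d0 (91.5%, against 20.8%). Library A of d0 read high in regions bound by PTFs at d0, and without it 2 regions were called lower as scaled. Among the 295 regions called higher at 8 h on both scales, 213 were Early&Constant (72.2%).

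The regions with the lowest p-values at 16 h against d0 were distal, closed at d0 and Early&Constant, and they were chosen after their values were seen. The closed class was cut from the same d0 libraries, so a choice by the rise from d0 favours it. In an intergenic region at chr7:130148494-130149813 in mm10, 371.2 kb downstream of the start of Ate1, the nearest protein-coding gene, the level was 0.0347, 0.0616 and 0.0412 RPM in the d0 libraries, 0.309, 0.310 and 0.233 RPM at 8 h and 1.04, 0.556 and 0.392 RPM at 16 h. The groups did not overlap. The limma difference was 2.06 ± 0.40 (SE) at 8 h (adjusted p = 0.00054) and 3.10 ± 0.40 at 16 h (adjusted p = 3.57e-10). A neighbouring region 379.1 kb from Ate1 went from 0.0612 to 0.273 and 0.605 RPM in the averages, so that both parts of this interval opened in the same 16 h.

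An intergenic region 37.8 kb upstream of Gm47985, at chr1:151143916-151145308, held 0.0434, 0.0440 and 0.0825 RPM at d0, 0.384, 0.367 and 0.195 RPM at 8 h and 1.05, 0.647 and 0.486 RPM at 16 h, with a 16 h difference of 3.09 ± 0.41 (adjusted p = 3.57e-10 by limma). It carries ectopic PTF binding, that is OCT4, SOX2 or ESRRB binding gained during induction. The region 44.8 kb upstream of Atxn7l3b, at chr10:112973066-112974612, rose from 0.0553 to 0.253 and 0.604 RPM in the averages and holds 13 GATA6 motifs. A region 79.1 kb upstream of Lhx1, a LIM homeobox factor gene expressed in visceral endoderm, held 0.0347, 0.128 and 0.0871 RPM at d0, 0.492, 0.475 and 0.313 RPM at 8 h and 1.04, 0.719 and 0.533 RPM at 16 h. In each of these regions every 8 h library exceeded every d0 library and every 16 h library exceeded every 8 h library.

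At other regions the 8 h and 16 h levels overlapped. At chr9:43857365-43858955, 114.5 kb downstream of the start of Nectin1, a cell adhesion gene, levels were 0.0391, 0.123 and 0.0917 RPM at d0, 0.534, 0.794 and 0.294 RPM at 8 h and 0.723, 0.556 and 0.381 RPM at 16 h. The difference from d0 was 2.29 ± 0.41 at 8 h (adjusted p = 0.00015 by limma) and 2.38 ± 0.41 at 16 h (adjusted p = 4.22e-06), and the 8 h and 16 h libraries overlapped. A second region 108.3 kb from Nectin1 averaged 0.129, 0.777 and 0.670 RPM. In an intron of Adora1, an adenosine receptor gene, the averages were 0.116, 0.714 and 0.973 RPM.

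**Figure D3:**
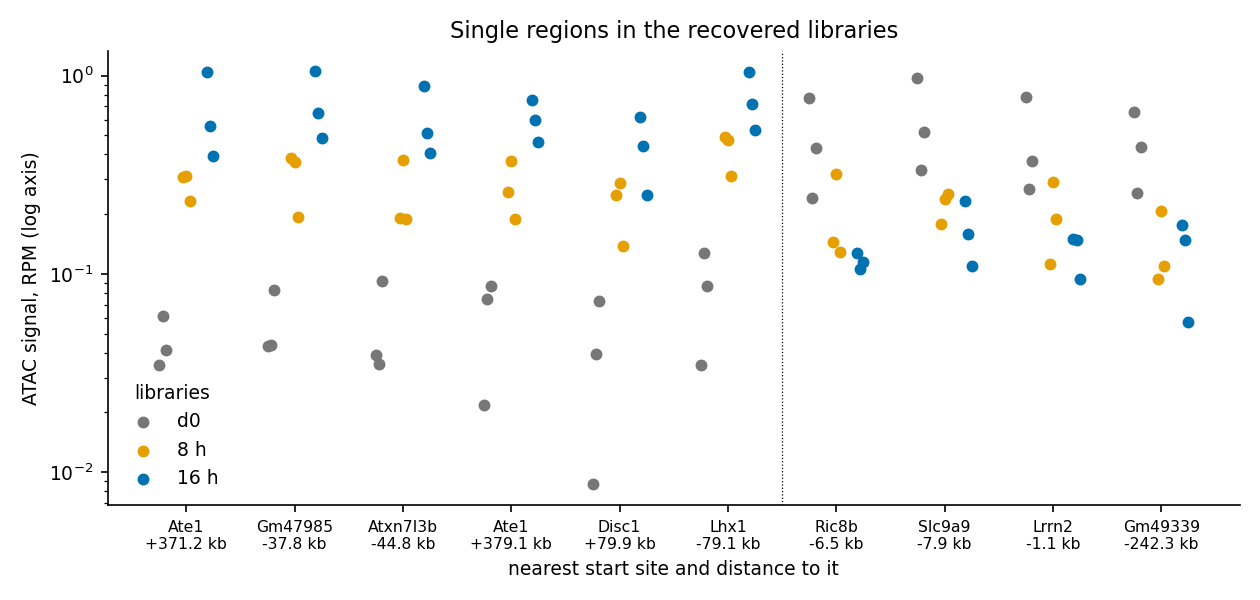
ATAC signal (RPM, log axis) of single regions in the 3 libraries each of d0, 8 h and 16 h. The 6 regions left of the dotted line have the lowest p-values at 16 h against d0, with all induced libraries above all d0 libraries, and in the 4 on the right, which have the largest decreases, every 16 h library lies below every d0 library.

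The largest decreases were seen at regions that were accessible and bound by PTFs at d0, Transient, and without SOX17. The accessible class was cut from the same d0 libraries, so a choice by the fall from d0 favours it. At chr10:84910713-84911307, 6.5 kb upstream of Ric8b, levels were 0.768, 0.242 and 0.431 RPM at d0, 0.145, 0.320 and 0.128 RPM at 8 h and 0.127, 0.105 and 0.115 RPM at 16 h. The 16 h libraries lay below all d0 libraries, whereas those of 8 h overlapped them, and the 16 h difference was -1.67 ± 0.40 (adjusted p = 0.00183 by limma). This region holds no GATA6 motif. At chr9:94661601-94662462, 7.9 kb upstream of Slc9a9, a sodium/hydrogen exchanger gene, levels were 0.977, 0.334 and 0.518 RPM at d0, 0.178, 0.240 and 0.252 RPM at 8 h and 0.232, 0.158 and 0.110 RPM at 16 h, a 16 h difference of -1.62 ± 0.41 (adjusted p = 0.00317). A region 181.8 kb upstream of Astn2 had fallen at 8 h already, from 0.438, 0.189 and 0.270 RPM to 0.0797, 0.103 and 0.0380 RPM (adjusted p = 0.00802), and held 0.123, 0.105 and 0.0731 RPM at 16 h. In all of these, library A of d0 was the highest of the d0 libraries, and without it only 2 regions were called lower at 16 h as scaled and 955 after centring, in place of 59 and 1544.

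Between 8 h and 16 h fewer regions could be told apart. In the averages, 2989 regions (7.05%) were at least 1.5-fold higher and 926 (2.18%) lower at 16 h. With limma on the 6 libraries as scaled, no region was called higher (0.0%) or lower (0.0%), with 857 regions at an unadjusted p below 0.05 and also 0 calls with limma voom on whole reads. After centring, 148 regions (0.596%) were higher and 88 (0.354%) lower, and of the higher ones 125 were Early&Constant and 85 carried ectopic PTF binding, classes that hold 27.6% and 16.5% of the regions tested. When the d0 libraries were added to that fit, 2 calls were left.

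Among the regions with the lowest p-values here, some rose only after 8 h. In an intron of Triml1, the level was 0.0174, 0.0264 and 0.0504 RPM at d0 and 0.0234, 0.0282 and 0.0380 RPM at 8 h, and was 0.177, 0.149 and 0.136 RPM at 16 h (centred adjusted p = 8.56e-05 by limma at 16 h against 8 h). Near Akr1c19 the averages were 0.0400, 0.0627 and 0.222 RPM. The opposite was seen in an intron near Wasf2, an actin-regulating gene, where d0 libraries held 0.0781, 0.110 and 0.133 RPM, 8 h libraries 0.324, 0.606 and 0.233 RPM and 16 h libraries 0.173, 0.144 and 0.0314 RPM (centred adjusted p = 8.65e-08). This Late region holds no GATA6 motif. An intronic region of B230104I21Rik with a strong GATA6 motif also peaked at 8 h, at 0.312 RPM between 0.0429 RPM at d0 and 0.136 RPM at 16 h.

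Ectopic PTF binding went with larger gains. The 7038 regions with ectopic PTFs rose from a median of 0.0613 RPM to 0.0941 and 0.126 RPM (median differences 0.36 and 0.57), the 26524 regions with no PTF from 0.0388 to 0.0580 and 0.0588 RPM (0.27 and 0.28), and the 8841 regions bound by PTFs at d0 held 0.240, 0.228 and 0.249 RPM (-0.10 and 0.01). After centring, the 16 h medians were 0.11 for ectopic PTF, -0.19 for no PTF and -0.45 for PTFs at d0. Within libraries, ectopic exceeded no-PTF regions by 0.42 ± 0.05 (SD, n = 3) at d0, 0.52 ± 0.03 at 8 h and 0.79 ± 0.12 at 16 h, with no overlap between any 2 of the 3 groups. Among Early&Constant regions alone the same difference was 0.35 ± 0.06 at d0, 0.38 ± 0.07 at 8 h and 0.52 ± 0.08 at 16 h, where 16 h lay above d0 and the 8 h libraries overlapped both. Ectopic binding was scored over the whole induction. Within libraries, regions bound by PTFs at d0 exceeded no-PTF regions by 1.93 ± 0.64 at d0 and 1.62 ± 0.22 at 16 h. At 8 h the excess was 1.54 ± 0.26. These 3 groups overlapped, and libraries A, B and C of d0 stood at 2.65, 1.45 and 1.69. Regions bound by PTFs at d0 split by GATA6 kinetics, with median differences at 16 h of 0.43 in Early&Constant and -0.21 in Transient regions, or -0.04 and -0.67 after centring. In the Transient ones, libraries A, B and C had medians of -1.41, -2.31 and -1.95 at d0, as log2 of RPM + 0.03. At 16 h these were -1.66, -2.14 and -2.55. As scaled, the d0 and 16 h libraries overlapped in both sets, and library A was the highest at d0.

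Regions at which GATA6 binding later depended on OCT4 also opened more. The class was taken by the authors from GATA6 binding 2 days after induction with Oct4 knockdown. The 2651 regions with decreased binding had median differences of 0.37 at 8 h and 0.61 at 16 h, and the 3636 with increased binding 0.30 and 0.24, and the centred medians at 16 h were 0.15 and -0.22. Within libraries the former exceeded the latter by 0.54 ± 0.26 at d0, 0.73 ± 0.15 at 8 h and 1.16 ± 0.25 at 16 h, and the 16 h libraries lay above both other groups. SOX17-bound regions showed median differences of 0.28 and 0.35 against 0.19 and 0.24 in those without SOX17, and centred medians at 16 h of -0.11 and -0.23. Inside the Early&Constant group, the excess of SOX17 regions was 0.71 ± 0.07 at d0, 0.75 ± 0.11 at 8 h and 0.82 ± 0.10 at 16 h, and the groups overlapped.

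Median differences were ordered by the quality of the GATA6 motif, most clearly in Early&Constant and Transient regions. In Early&Constant regions the median 16 h difference was 0.31 without a motif, 0.43 in the low class of motif scores, 0.61 in the middle class and 0.74 in the high class, where 3 classes of equal size were cut at scores of 8.99 and 11.7 over all regions with a motif. In Transient regions it went from -0.04 to 0.07, 0.24 and 0.38, and in Late regions only from 0.13 to 0.18, 0.20 and 0.24. After centring, the high class stood at 0.27 in Early&Constant, -0.09 in Transient and -0.22 in Late regions, and every motif class of the Transient and Late groups had a negative median. The number of motifs ordered Early&Constant regions likewise, from 0.46 with 1 motif to 0.55 with 2 to 3 and 0.75 with 4 or more, though regions with 4 or more motifs were also wider (median 995 bp against 557 bp with 1). Within libraries, Early&Constant regions with the best motifs were at -0.69, 0.00 and -0.03 relative to those without a motif at d0, at 0.31, 0.20 and 0.12 at 8 h and at 0.22, 0.26 and 0.39 at 16 h. The same difference between motif classes changed from d0 to 16 h by 0.62 in Transient regions, without overlap, and by 0.06 in Late regions, where the groups overlapped (exact permutation p = 0.7) and the value was -0.01 without library A of d0. Without that library the Transient value was 0.37. Regions without a motif were more open at d0, and among closed regions alone the 16 h median went from 0.19 without a motif to 0.28, 0.39 and 0.53. Median width rose with the score too, from 530 bp without a motif to 823 bp in the high class of Early&Constant regions. In Transient regions it went from 401 to 565 bp and in closed regions from 350 to 555 bp. The part of width in this order was not tested.

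**Figure D4:**
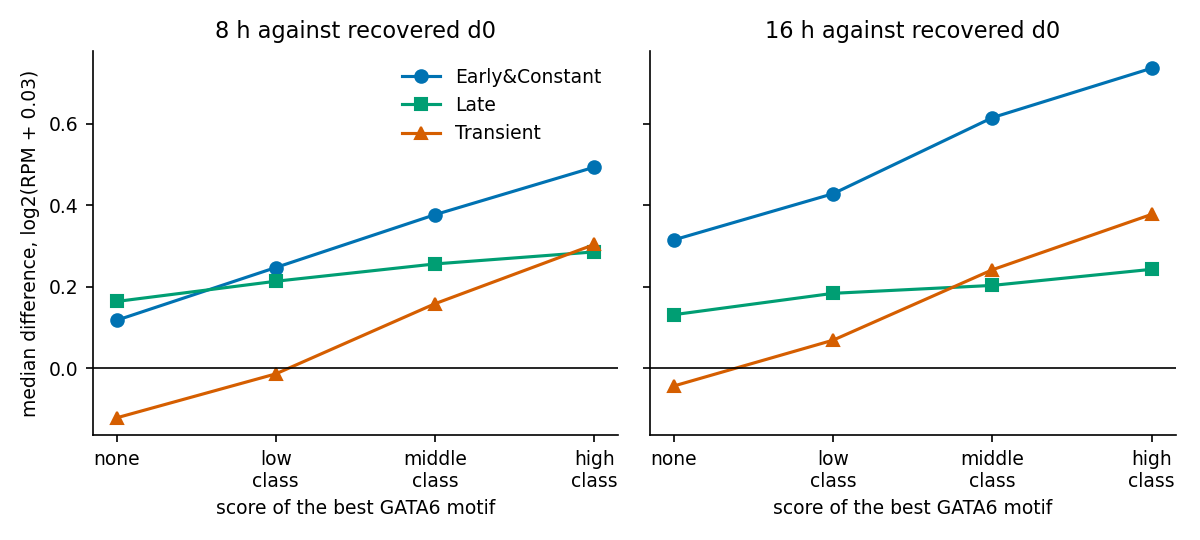
Median difference in log2(RPM + 0.03) against the recovered d0 average, at 8 h (left) and 16 h (right), by the score of the best GATA6 motif, for each GATA6 binding group. Points are medians over regions of averaged columns; at 16 h the Early&Constant group runs from 0.31 without a motif to 0.74 in the high class.

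The classes of accessibility at d0 were cut from the same d0 libraries and are described without a test. Closed regions had median differences of 0.36 and 0.39, moderate regions 0.02 and 0.15, and accessible regions -0.13 and -0.07. The accessible medians of libraries A, B and C were -0.54, -1.46 and -1.05 at d0, as log2 of RPM + 0.03. At 16 h they were -0.59, -1.18 and -1.66, so that the groups overlapped. Of the 1171 regions called higher at 16 h on both scales, 1104 were closed (94.3%, against 60.4% of those tested). Histone-mark classes of ES cells, which come from other data, gave medians at 16 h of 0.37 in facultative heterochromatin, the Polycomb-marked kind, 0.38 in unmarked chromatin, 0.31 in poised and 0.26 in primed enhancers, 0.22 at promoters and 0.03 in active enhancers. Constitutive heterochromatin stood at 0.24. After centring all of these were negative, from -0.08 in unmarked chromatin and -0.10 in facultative heterochromatin to -0.44 in active enhancers. Within libraries, active enhancers exceeded unmarked chromatin by 2.44 ± 0.64 (SD, n = 3) at d0 and 1.91 ± 0.25 at 16 h. These groups overlapped, and library A of d0 was the highest at 3.17. Facultative heterochromatin supplied 416 of the 1171 (35.5%, against 22.7% of those tested) and unmarked chromatin 348 (29.7%, against 15.9%), while active enhancers supplied 6 (0.512%, against 11.4%) and promoters 1 (0.0854%, against 7.34%). Constitutive heterochromatin supplied 45 (3.84%, against 10.3%). As gene features, 633 of the 1171 were intergenic (54.1%, against 45.5% of those tested), 497 intronic (42.4%, against 45.4%) and 12 at promoters, within 1 kb of a start site (1.02%, against 5.73%). The intronic share was thus near that of all regions, the intergenic share moderately above it and the promoter share below it.

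Regions within 100 kb of PrE genes were part of this rise. Of 104 regions nearest to genes of endoderm transcription factors, 35 were at least 1.5-fold higher and 1 lower at 8 h, beside 19.8% and 3.39% of all. At 16 h, 53 of the 104 were higher and 1 lower, beside 26.0% and 3.5% of all. Their median difference at 16 h was 0.59, or 0.13 after centring, and 9 of the 39 testable regions were called higher as scaled, beside 8.27% of all regions, and 8 higher and 1 lower after centring, beside 4.71% and 6.22%. Only 39 could be tested since the loci of Gata6, Gata4, Sox7 and Foxa2 have averages only. A region 67.1 kb upstream of Gata4, a GATA factor active beside GATA6, went from 0.247 to 0.439 and 0.842 RPM, and the region 0.9 kb downstream of the start of endogenous Gata6 from 0.560 to 0.830 and 1.19 RPM.

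Beyond the regions fixed by their level, those past the test on both scales were looked at after their values were seen. A region 22.7 kb downstream of the start of Sox17, at chr1:4473107-4475478, held 0.0391, 0.1495 and 0.124 RPM at d0, 0.319, 0.324 and 0.180 RPM at 8 h and 0.659, 0.522 and 0.376 RPM at 16 h, and its 16 h difference was 2.11 ± 0.41 (adjusted p = 4.58e-05 by limma). The 3 groups did not overlap. A second one, 40.3 kb upstream, went from 0.0922 to 0.173 and 0.463 RPM in the averages. Foxq1, a forkhead factor gene, supplied 3 of the 8 endoderm factor regions called higher at 16 h on both scales, the strongest averaging 0.0476, 0.135 and 0.315 RPM.

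Among receptor genes the share of higher regions was moderately above that of all regions in the averages, and further above it among the calls. Of 72 regions near genes of endoderm receptors and signalling, 25 were higher and 1 lower at 16 h, beside 26.0% and 3.5% of all, with a median difference of 0.41, or -0.06 after centring. As scaled, 8 of 27 tested were called higher, beside 8.27% of all, and 7 were higher and 1 lower after centring, beside 4.71% and 6.22%. Pdgfra, which encodes the PDGF receptor that marks PrE, supplied 4 of the 7 regions called higher on both scales, between 33.8 and 5.6 kb upstream of its start. It was named after the calls were seen. The one at 14.3 kb held 0.208, 0.202 and 0.188 RPM at d0, 0.370, 0.428 and 0.361 RPM at 8 h and 1.14, 0.796 and 0.637 RPM at 16 h (1.91 ± 0.42, adjusted p = 0.000439 by limma). A region 2.9 kb upstream of Amn, an endocytic receptor subunit gene, held 0.130, 0.167 and 0.284 RPM at d0, 0.581, 0.719 and 0.370 RPM at 8 h and 1.00, 0.685 and 0.392 RPM at 16 h (1.66 ± 0.42, adjusted p = 0.00322), with the 8 h and 16 h libraries overlapping. Near Fgfr1 a region averaged 0.127, 0.501 and 0.464 RPM.

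Basement membrane genes, whose laminins and collagen IV are made in bulk by PrE derivatives, had 106 regions. Of these, 50 were higher and 0 lower at 16 h, beside 26.0% and 3.5% of all. As scaled, 14 of 77 tested were called higher, beside 8.27% of all. After centring, 8 were higher and 1 lower, beside 4.71% and 6.22%. Col4a1 and Col4a2 share a divergent promoter, and 4 of the 8 regions called higher on both scales lay around them. They were named after the calls were seen. The one 4.7 kb upstream of the Col4a1 start, within an intron, averaged 0.0817, 0.248 and 0.392 RPM. Upstream of Lamc1, a laminin chain gene, a region at 26.0 kb held 0.1997, 0.145 and 0.211 RPM at d0, 0.516, 0.893 and 0.423 RPM at 8 h and 1.10, 0.815 and 0.491 RPM at 16 h, while the Lamc1 promoter, open from the start, averaged 1.16, 1.19 and 1.48 RPM and was not called. Secreted endoderm protein genes had 21 of 42 regions higher and 0 lower at 16 h, beside 26.0% and 3.5% of all. Of 14 tested, 1 was called as scaled, a share near the 8.27% of all regions, and 0 after centring.

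In the averages, loci of pluripotency factors were close to all regions in median difference and in the share of higher regions. The median difference was 0.27, or -0.19 after centring, beside 0.28 and -0.18 over all regions. Of their 199 regions, 47 were higher and 13 lower at 16 h, beside 26.0% and 3.5% of all. The share of lower regions was thus the larger at these loci. As scaled, 5 of 109 tested regions were called higher, beside 8.27% of all, and none lower, beside 0.238%. After centring 1 was higher and 11 lower, beside 4.71% and 6.22%. Higher calls were thus rarer than over all regions on both scales, and lower calls more frequent after centring, though these counts are small. The summed level of the 109 regions overlapped between groups. It was 42.2, 26.7 and 34.8 RPM in the d0 libraries and 47.3, 32.9 and 24.4 RPM in those of 16 h. A region 54.9 kb downstream of the start of Klf4 held 1.74, 1.24 and 1.64 RPM at d0, 1.08, 1.64 and 0.907 RPM at 8 h and 1.74, 1.39 and 1.03 RPM at 16 h, with overlapping groups. An intronic region of Tfcp2l1 averaged 1.62, 1.73 and 1.91 RPM. Regions near mesoderm and ectoderm genes numbered 14, with 3 higher and 0 lower at 16 h, beside 26.0% and 3.5% of all. None of 10 tested was called by limma on either scale at 8 h or 16 h against d0.

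Feeder fibroblasts are the other cells these cultures could hold. Of 18 regions near fibroblast genes, 4 were higher and 0 lower at 16 h, beside 26.0% and 3.5% of all, and 2 of 13 tested were called higher as scaled, beside 8.27% of all. After centring 1 was called higher, near Thy1, and 1 lower, beside 4.71% and 6.22% of all. On that scale 1 was lower at 16 h against 8 h, beside 0.354% of all. The summed level of the 13 regions ran from 1.01 to 1.19 RPM in the d0 libraries, from 0.987 to 1.80 RPM at 8 h and from 1.23 to 2.46 RPM at 16 h, and the d0 and 16 h libraries did not overlap. These are GATA6-bound regions and no direct measure of fibroblast content, and their part in the results above was not tested.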

How the data were processed

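ATAC-seq libraries of 3 groups (d0, 8 h, 16 h; 3 samples each, prepared from separate cultures per the study's methods) were read from a table of 42403 regions. Per the labels and methods, the authors used cutadapt for trimming, Bowtie2 for alignment on mm10 and SAMtools for filtering, and counted short fragments per region. The deposited values are RPM averages that resolved into whole reads with 1 read added per library, and the d0 column averages 9 libraries. Motif scores and motif counts were deposited by the authors too, and their score was used only to rank regions. Of the 105 columns, 6 ATAC columns entered the computations. Another 52 per-sample columns of other assays, and the XEN column, were not used.

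The averaged values were resolved into whole reads per library (tolerance 1e-07 reads; values with at least 13 digits), a step tested on simulated data. The d0 average was obtained as 3 times the d0 column minus the 8 h and 16 h columns, a choice made after the data were seen, as were all tests against d0 libraries. The design had planned the d0 column as deposited, which is reported beside it. Differences were taken on log2(RPM + 0.03), which understates the change of low regions, and counted at 1.5-fold on averages. limma 3.58.1 in R 4.3.3 was fitted with a variance trend to all 24841 recovered regions, for 16 h against 8 h on 6 libraries and against d0 on 9, with Benjamini-Hochberg adjustment over all regions. Set medians within libraries were compared by exact two-sided permutation tests. Nearest protein-coding start sites and features came from GENCODE M21. P-values measure the spread between these cultures, in limma through a variance drawn towards a trend over all regions. The SEs printed for single regions were therefore nearly equal and do not give the spread of that region alone. Counting error only is covered by the read numbers.

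Regions were named by rule: with a mean of at least 0.1 RPM, the largest changes at 16 h (10 each way) and 8 h (5 each way) against d0, the 10 lowest p-values at 16 h against 8 h on each scale, and near listed genes (within 100 kb) the 3 highest mean levels per list. The same ranking with the recovered d0, the lowest p-values against d0 and called regions near listed genes were added later. Region sets, gene lists and comparisons were chosen with earlier results of these data known. Alternatives were other pseudocounts, a filter on low values, centring, quantile normalisation, limma voom, added libraries and leaving out each library. A withheld item is not reported here.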

Additional observations from a re-analysis of the deposited data

How the results depend on the processing

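No paired analysis was possible because the averaged columns carry no replicate numbers and the recovered libraries cannot be tied to them. Counts of regions past 1.5-fold on averages depend on the pseudocount, since many levels are low. With 0.006 RPM they were 1080 (8 h) and 3140 (16 h) against the deposited d0 column, 16508 at 8 h against the recovered d0 and 8273 at 16 h against 8 h. With 0.15 RPM they were 1, 123, 1902 (8 h) and 3948 (16 h) against the recovered d0, and 463. Kept to regions with a mean of at least 0.1 RPM, they were 103 (8 h, deposited), 5002 and 6534 (8 h and 16 h, recovered) and 2183 (16 h against 8 h), fewer regions being counted. Quantile normalisation gave 761 at 16 h against the deposited d0. Replacing the deposited by the recovered d0 gave 9827 (8 h) and 12490 (16 h).

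Called regions moved likewise, the cause not being tested except where fewer regions or samples entered. As scaled, 8 h against d0 gave 512 calls with 0.006 RPM, 99 with 0.15 RPM, 2316 (1307 higher, 1009 lower) with quantile normalisation and 936 with later libraries added to the fit; 16 h against d0 gave 3732 (2066 higher, 1666 lower) and 3203 under the last 2. Centred, 8 h against d0 gave 2041 among regions of at least 0.1 RPM, 2316 with quantile normalisation, 1996 with later libraries and 521 with only the 2 groups fitted. For 16 h against 8 h, quantile normalisation gave 680 calls and later libraries 2 as scaled; centred, calls were 105 with 0.15 RPM, 705 among regions of at least 0.1 RPM, 680 with quantile normalisation, 416 with later libraries and 2 with d0 libraries added. Leaving out 1 library, the as-scaled calls at 8 h ranged from 25 (without 8 h A or B) to 1644 (without 8 h C), with 49, 94 and 120 without d0 A, B and C. At 16 h they ranged from 702 (without 16 h A) to 2779 (without 16 h C), with 817, 1230 and 927 without d0 A, d0 B and 16 h B. Centred, they ranged from 186 (without 8 h A) to 2083 (without d0 B) at 8 h, with 345 and 350 without 8 h B and C, and from 1460 (without 16 h B) to 3514 at 16 h, with 1515 and 1780 without 16 h A and C. For 16 h against 8 h they ranged from 0 to 6 as scaled and from 45 (without 16 h B) to 313 centred, with 72 and 57 without 8 h C and 16 h A. Set pairs without overlap numbered 3 (0.006 RPM) and 11 (quantile) at 8 h, 11 (quantile) at 16 h, and 8 (at least 0.1 RPM) and 7 (0.006 RPM) at 16 h against 8 h, with ranges of 5 to 7, 8 to 9 and 4 to 7 when 1 library was left out. The difference between Late regions with the best and with no motif at 16 h against 8 h turned from -0.06 to 0.0766 among regions of at least 0.1 RPM. A median of 10 to 26 reads per region and library limits single-region statements at closed sites.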
